A study of Mus musculus with 12 samples.

Results

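The response of cerebellar granule cell progenitors to an activated hedgehog signal was compared between the lateral and the midline cerebellum. For each gene, the difference between SmoM2 and wild type progenitors of the hemispheres was set against the same difference in the vermis. The hemisphere difference minus the vermis difference is called the interaction here. It was computed for 18194 genes from 12 of the 12 arrays of the series, so no array was left out by the choice of comparison. A positive interaction means that the SmoM2 effect was higher, or less negative, in the hemisphere.

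Granule cell progenitors divide in the outermost layer of the postnatal cerebellum and give rise to granule neurons. Their division is driven by Sonic hedgehog from Purkinje cells: the ligand binds Patched1, which releases Smoothened, and Gli transcription factors then turn on target genes such as Gli1, Ptch1 and Hhip. SmoM2 is a mutant Smoothened that signals without ligand, and in these progenitors such signaling is known to cause medulloblastoma. Hemispheres and vermis are the lateral and midline parts of the cerebellum and differ in developmental patterning.

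All mice were at postnatal day 8 and of mixed C57BL/6 and Swiss Webster background. The SmoM2 groups had the genotype Atoh1-CreER/+; R26LSL-SmoM2-YFP and were given 200 µg of tamoxifen per g at P2. Tamoxifen activates the recombinase, and Atoh1 control limits it to cells that use that promoter. The other groups were labelled wild type, and the sources used here do not say whether those mice had tamoxifen. Progenitors were isolated on a Percoll gradient, which enriches small cells by density and leaves some cells of other types, and each replicate was a pool from 5 mice. Hemisphere and vermis of each genotype had 3 arrays, 4 groups in all. Values are log2 expression made by RMA from Affymetrix mouse expression arrays, and a difference of 1 on this scale is a 2-fold change. In bulk samples such as these, fewer cells of a type and less RNA per cell cannot be told apart.

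The arrays were alike in distribution, with medians between 4.81 and 4.87, and their number of 3 per group limits the precision. The probe sets for the 3' and 5' ends of Actb differed by 0.46 to 0.79 in the wild type hemisphere and by 0.88 to 1.10 in the other groups, and the part of this RNA measure in the results was not tested. Wild type hemisphere replicate 3 had the lowest signal for the spiked-in controls dap (9.01, against 10 to 12.07) and bioB (6.81, against 8.23 to 9.2). The mean level of 17 progenitor identity genes was 8.41 to 8.67 over the 12 arrays. The labels do not say whether hemisphere and vermis arrays of the same genotype and number came from the same pool of mice. Their deviations from group means were correlated, so a shared pool was assumed. The mean level of 4 sex-linked transcripts differed between assumed partners (hemisphere minus vermis) by 0.03, 0.02 and -0.02 in wild type. In SmoM2 it differed by -0.19, -0.22 and 0.29, so the assumption is less secure there, and its bearing on the results was not tested. Counts are also given with this assumed pool as a random block where that moved them by about 1.5 times or more.

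The SmoM2 responses of the 2 regions ran in parallel across genes, and no single gene passed the test of a difference between them. Averaged over the regions, SmoM2 changed 6451 genes (35.5% of those tested), of which 2801 (15.4%) rose and 3650 (20.1%) fell, by limma with Benjamini-Hochberg adjustment at 0.05. That fit treats the 2 regions of a pool as independent, and 4312 genes passed when the pool was a random block. Of these 6451 genes, 6446 had the same direction in the hemisphere as in the vermis. Their median effect size was 0.387 in the hemisphere and 0.395 in the vermis. Among the 403 genes that changed by at least 2-fold, 249 rising and 154 falling, all had the same direction in both regions, and the median sizes were 1.3 and 1.352. In this balanced design the average effect and the interaction are independent estimates, so these genes were chosen without regard to the size of the interaction. Both tests use the same variance estimate of a gene, so shares by interaction p are not free of the choice. The choice does favor a shared direction, since opposite signs need an interaction over 2 times the average effect. Interactions over all genes ran from -1.31 to 1.11, so none of the 403 genes could have opposite signs.

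Across all 18194 genes the effects of the 2 regions correlated at Pearson's r = 0.883 and Spearman's rho = 0.793, and 14894 genes (81.9%) had the same sign. Over the 6451 responsive genes r was 0.945 and rho 0.865, and over the 403 genes past 2-fold they were 0.978 and 0.907. Choosing genes by the average of both effects in itself raises these correlations. The principal axis through all genes had a slope of 0.969 in the hemisphere per unit in the vermis, and through the 403 genes 0.967. These are descriptions across genes, which are not independent replicates. The 2 effects share no array, but they share the array processing and the probe sets, and may share the pools of mice.

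**Figure D1:**
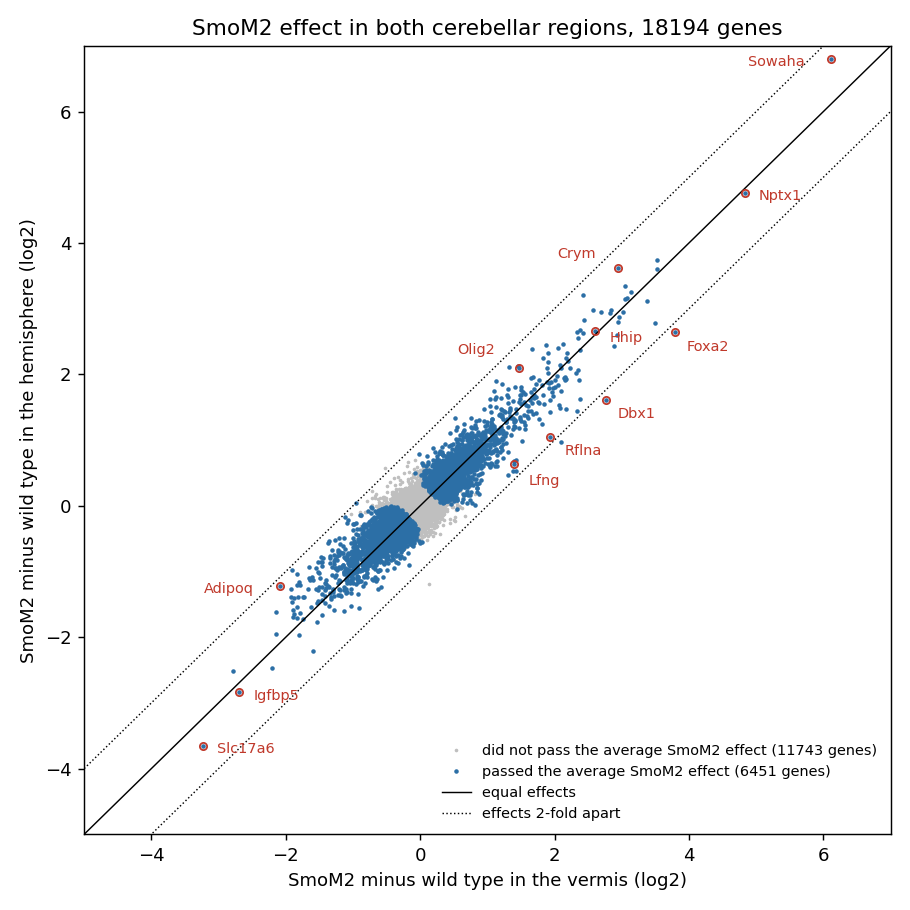
Each point is 1 of 18194 genes, with the SmoM2 minus wild type difference in the vermis (log2) on the horizontal axis and in the hemisphere (log2) on the vertical axis. Blue marks the 6451 genes that passed the average SmoM2 effect, the solid line equal effects and the dotted lines effects 2-fold apart. The responsive genes lie along the solid line (r = 0.945), and the circled Foxa2 and Dbx1 lie just beyond a dotted line.

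The genes at the 2 ends of the response were named by their average SmoM2 effect. They were taken only from genes with the 6 arrays of one genotype all on one side of the other 6. That choice fixes a shared direction, so only the sizes are compared here. Sowaha, which encodes an ankyrin repeat protein, had the highest SmoM2 effect in both regions, by 6.80 ± 0.14 (SE, 3 arrays per group) in the hemisphere and 6.12 ± 0.14 in the vermis. Nptx1, a secreted neuronal pentraxin, rose by 4.76 and 4.83 (1.78 and 2.01 on its other, dimmer probe set). Cbln4, Vip, Pdlim3 and Rbp4 rose by 3.60, 3.74, 3.25 and 3.12 in the hemisphere and by 3.53, 3.53, 3.14 and 3.38 in the vermis. At the other end Slc17a6, the vesicular glutamate transporter of immature granule neurons, fell by 3.65 and 3.24. Igfbp5, an insulin-like growth factor binding protein, fell by 2.84 and 2.70 (effects of -0.73 and -0.46 on its other, dimmer probe set). The interactions of these genes, from -0.41 (Slc17a6) to 0.68 (Sowaha), were small beside the effects themselves.

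The known outputs of hedgehog signaling responded alike within the precision of the arrays. Gli1, the transcription factor that serves as a readout of the pathway, stood at 7.15, 6.83 and 7.41 in the wild type hemisphere and at 8.87, 8.88 and 8.69 in the SmoM2 hemisphere. In the vermis it stood at 7.28, 6.93 and 7.25 in wild type and at 8.55, 8.81 and 8.61 in SmoM2. In both regions every SmoM2 array lay above every wild type array, and the rises of 1.68 ± 0.14 and 1.5 ± 0.14 differed by 0.18 (95% interval -0.26 to 0.62). Ptch1, the receptor that holds Smoothened in check, was at 10.50, 10.83 and 10.64 in wild type and 12.37, 12.38 and 12.30 in SmoM2 hemispheres. Its vermis values were 10.48, 10.65 and 10.62 against 12.34, 12.48 and 12.42, close to those of the hemisphere in both genotypes. The rises of 1.69 and 1.83 differed by -0.14 (-0.45 to 0.18).

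Hhip, which binds and sequesters hedgehog ligands, rose by 2.66 and 2.61, with an interaction of 0.05 (-0.64 to 0.74). Ccnd1 and Cdk6, a cyclin and its kinase of the G1 phase, rose by 1.37 and 1.95 in the hemisphere and by 1.59 and 2.15 in the vermis. Bcl2, which blocks apoptosis, rose by 1.11 and 1.18. Mycn, a growth regulator downstream of the pathway, had effects of 0.41 in both regions that did not pass (adjusted p of 0.0556 and 0.055 by limma). Of 14 measured hedgehog target genes, on a list of 15, 8 rose in each region, 1 fell laterally and 3 fell in the vermis (1 without SmoM2 vermis replicate 3). Over all genes the shares that rose were 7.62% (hemisphere) and 7.56% (vermis), and those that fell were 7.18% and 9.46%. The median interaction of the list was 0.04, against 0.01 over all genes, and for 13 of the 14 the 95% interval lay within a 2-fold difference either way. The exception was Nkx2-2, a factor of ventral neural tube and oligodendrocyte progenitors, with effects of -0.28 and -0.84.

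The receptors and transducers of the signal behaved in the same way. The co-receptor Boc rose by 0.68 and 0.65, Gas1 by 1.10 and 0.96, and Cdon by 0.82 and 0.76 (hemisphere first; 0.07 and -0.34 on its second, dimmer probe set). Smo itself rose by 0.46 in the hemisphere and had an effect of 0.28 in the vermis (adjusted p = 0.0741 by limma), with an interaction of 0.18 (-0.14 to 0.49); whether its probe set reads the transgene was not tested. Gli2, the main activator, rose by 0.49 in both regions, while Gli3, mostly a repressor, had effects of -0.26 and -0.27 that did not pass. Over 27 measured members of the transduction list, 7 rose in each region, against 7.62% (hemisphere) and 7.56% (vermis) over all genes. The median interaction was 0.04, and 26 intervals lay within 2-fold. The vermis count was 3 without wild type vermis replicate 2 or SmoM2 vermis replicate 1, and 4 when replicate 2 or 3 of the SmoM2 vermis was dropped. The remaining one was Shh, the ligand, with an effect of 0.20 in the hemisphere and 0.85 in the vermis (adjusted p of 0.595 and 0.0275), and an interval of the interaction from -1.38 to 0.08. Its other, dimmer probe set gave an interaction of -0.12.

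Markers of the progenitor state and of its exit also moved in parallel. Atoh1, the proneural factor of granule cell progenitors and the gene whose promoter drives the recombinase, rose by 0.82 and 0.85, with an interaction of -0.03 (-0.40 to 0.34). Neurod1, which marks cells entering differentiation, fell by 0.85 and 0.82, and Cntn2, an adhesion molecule of newly formed granule neurons, fell by 0.91 and 1.07. Of 29 measured genes of granule neuron differentiation 14 fell laterally and 16 at the midline, against 7.18% and 9.46% over all genes. The list median was -0.23 in the hemisphere and -0.55 in the vermis, while the median interaction of its members was 0.09 (0 without wild type hemisphere replicate 2, and 0.13 without replicate 3). Of 17 progenitor identity genes 2 rose in each region, while 4 fell laterally (2 without SmoM2 hemisphere replicate 2 or 3) and 3 at the midline, with a median interaction of -0.07. Over all genes 7.62% rose laterally and 7.56% at the midline.

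**Figure D2:**
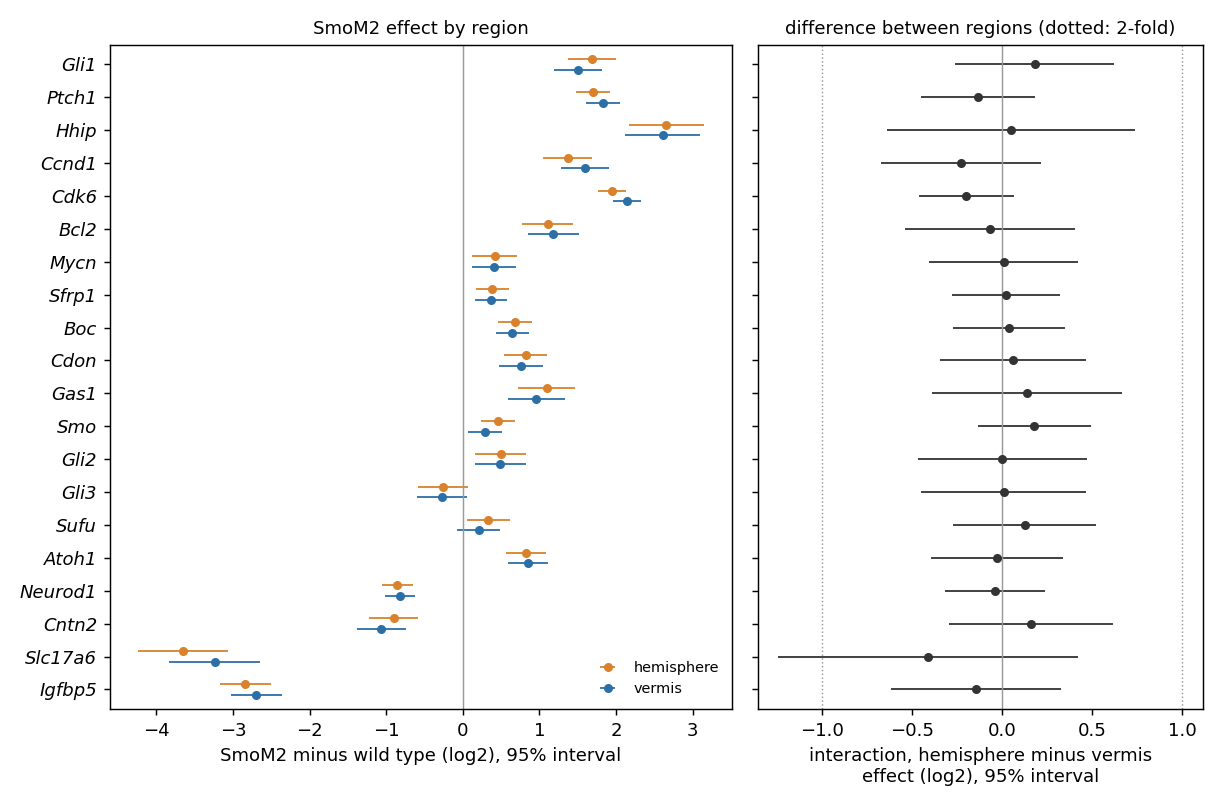
The left panel gives the SmoM2 minus wild type difference (log2) of 20 named genes in the hemisphere (orange) and the vermis (blue), and the right panel the interaction (log2), each with its 95% limma interval. All right-hand intervals hold 0, and all but that of Slc17a6, from -1.24 to 0.42, stay between the dotted 2-fold lines.

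Tested gene by gene, the interaction passed for 0 of 18194 genes (0%) by limma with Benjamini-Hochberg adjustment, and the lowest adjusted p was 1. At an unadjusted p under 0.05 there were 564 genes (3.1%), of which 366 (2.01%) had a positive and 198 (1.09%) a negative interaction. When the pool of mice was a random block, 0 genes passed as well, the lowest adjusted p was 0.152, and 1297 genes (7.13%) had an unadjusted p under 0.05. A p that misses the threshold does not show equal responses, so the intervals were read as well. The 95% interval of the interaction lay within 2-fold either way for 17731 genes (97.5%) and within 1.5-fold for 11981 (65.9%). It lay wholly outside 2-fold for 0 genes and wholly outside 1.5-fold for 1. For the other 463 genes a 2-fold difference in response lay inside the interval, and the median half-width was 0.39. Of the 403 genes with the largest responses, 319 (79.2%) had intervals within 2-fold and 120 (29.8%) within 1.5-fold, smaller shares than over all genes. Among them 56 (13.9%) had an unadjusted interaction p under 0.05, a larger share than over all genes, and 89 (22.1%) did when the pool was a random block.

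The separate calls in each region give a less even picture than the test of the difference. In the hemisphere 2694 genes passed (14.8%; 1387 rose and 1307 fell) and in the vermis 3096 (17%; 1375 rose and 1721 fell). Of these, 1814 passed in both regions, 958 rising and 856 falling, and 0 passed in opposite directions; they were 67.3% of the hemisphere calls and 58.6% of the vermis calls. The 880 genes that passed in the hemisphere and missed in the vermis had median effects of 0.478 and 0.28, in the same direction for 860, and 94 (10.7%) had an unadjusted interaction p under 0.05. The 1282 genes that passed in the vermis and missed in the hemisphere had medians of 0.47 and 0.264, in the same direction for 1224, and 184 (14.4%) had such an interaction p. When the pool was a random block, 180 (20.5%) of the former and 337 (26.3%) of the latter had one. Most genes called in a single region thus had an effect of the same sign in the other. These shares were read only as descriptions, since a call in a single region favors genes whose difference is large there.

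The counts moved with single arrays. Leaving out wild type hemisphere replicate 1 gave 4276 hemisphere calls, and leaving out replicate 1 or 3 of the SmoM2 hemisphere gave 1633 or 1705. In the vermis, 1873 or 1920 genes passed when wild type replicate 2 or 3 was dropped, and 1795 or 1756 when SmoM2 replicate 1 or 2 was. The number of genes with an unadjusted interaction p under 0.05 was 951 when the third wild type hemisphere array, which had low spike signals, was dropped.

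Of the 154 genes that fell by at least 2-fold, 97 (63%) had the larger effect in the vermis, and 87 to 106 did when single arrays were left out. Among the 249 genes that rose by at least 2-fold, 126 (50.6%) had the larger effect in the vermis (100 to 138). Over all genes with a negative average effect the share was 53.6%, and over those with a positive one 49.6%. No test was made of these shares.

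Some genes with a small interaction p are described next, and where that p chose them, it supports nothing about them. They are not the full top of the ranking. Foxa2 and Fgf8 stand below genes not described here, such as E430024I08Rik, Klhl4, Camk1d and Mir1949. The interaction of Camk1d was -0.73, and -0.10 and -0.05 on its dimmer probe sets. Rflna, which encodes a filamin-binding regulator of the cytoskeleton, was at 4.88, 4.89 and 5.15 in the wild type hemisphere and at 5.93, 6.16 and 5.95 in the SmoM2 hemisphere. Its vermis values were 4.86, 4.57 and 4.76 in wild type and 6.59, 6.60 and 6.79 in SmoM2. Wild type arrays of the vermis lay just below those of the hemisphere, and all SmoM2 vermis arrays lay above all SmoM2 hemisphere arrays. The rises were 1.04 ± 0.12 and 1.93 ± 0.12, and the interaction was -0.89 (95% interval -1.24 to -0.53). A second Rflna probe set gave -0.93.

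Dbx1, a homeodomain factor of interneuron progenitors in the developing hindbrain and spinal cord, had the same shape. It was at 4.52, 4.26 and 4.50 in wild type and 5.94, 5.65 and 6.52 in SmoM2 hemispheres. In the vermis the values were 4.35, 4.59 and 4.43 in wild type and 7.23, 7.18 and 7.27 in SmoM2. The wild type levels of the regions overlapped, and the SmoM2 levels did not. The rises were 1.61 ± 0.17 and 2.77 ± 0.17, with an interaction of -1.17 (-1.68 to -0.65). Without SmoM2 hemisphere replicate 3, the highest of its group, Dbx1 was the 1 gene that passed, at -1.41 (adjusted p = 0.0372 by limma).

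Foxa2 encodes a forkhead protein that hedgehog signaling induces in the floor plate, and it resembled Dbx1. It was at 4.55, 3.90 and 4.32 in wild type and 6.72, 7.06 and 6.90 in SmoM2 hemispheres. Vermis levels were 3.56, 4.54 and 4.63 in wild type and 8.12, 8.13 and 7.88 in SmoM2. Again only the SmoM2 arrays were apart by region, those of the vermis being higher. The rises were 2.64 ± 0.23 and 3.80 ± 0.23, and the interaction was -1.16 (-1.88 to -0.45; unadjusted p = 0.00361 by limma). Without wild type vermis replicate 1, which had the lowest value, the interaction was -0.82.

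Fgf8, a growth factor of the isthmic organizer between midbrain and cerebellum, had lower levels and the same order. It was at 3.56, 3.40 and 3.76 in wild type and at 4.18, 4.59 and 4.03 in SmoM2 hemispheres. The vermis had 3.34, 3.77 and 3.86 in wild type and 5.18, 4.98 and 5.07 in SmoM2. The SmoM2 vermis arrays were the highest, and wild type levels overlapped. Those wild type levels, 3.34 to 3.86, lay near the lower quartile of the arrays (3.24 to 3.42), where RMA compresses differences. It rose by 0.69 ± 0.16 and 1.42 ± 0.16 (interaction -0.73; unadjusted p = 0.00651 by limma). Adgrg6, an adhesion receptor best known from Schwann cells, rose by 0.53 and 1.38, with an interaction of -0.85 and of -0.46 on its other probe set. Saa1, an acute-phase protein gene, rose by 2.79 and 3.50.

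Members of the Notch pathway stood on both sides. Lfng, a glycosyltransferase that changes how Notch responds to its ligands, was at 5.38, 5.35 and 5.40 in wild type and 5.80, 6.13 and 6.12 in SmoM2 hemispheres. In the vermis it was at 4.78, 4.71 and 4.90 in wild type and 6.12, 6.33 and 6.13 in SmoM2. Here the wild type arrays were apart, lower in the vermis, while the SmoM2 levels of both regions were near each other. The rises were 0.64 ± 0.11 and 1.39 ± 0.11, and the interaction was -0.75 (-1.09 to -0.42), with -0.37 on the other probe set.

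Dll3, a divergent Notch ligand that does not activate the receptor in neighboring cells, went the other way. It was at 6.89, 6.79 and 6.83 in wild type and 8.07, 7.92 and 7.83 in SmoM2 hemispheres. Its vermis levels were 7.33, 7.18 and 7.16 in wild type and 7.63, 7.78 and 7.59 in SmoM2. Wild type levels were higher in the vermis, SmoM2 levels higher in the hemisphere, and no groups overlapped. The rises were 1.10 ± 0.10 and 0.45 ± 0.10 (interaction 0.65, 0.35 to 0.96). Over the 24 genes of the Notch list 8 rose in each region, against 7.62% (hemisphere) and 7.56% (vermis) over all genes. The median interaction was 0.14 and 18 were positive. An unadjusted p under 0.05 was reached by 3 (12.5%, against 3.1% over all genes): Lfng, Dll3 and Hey2. That number was 5 when the pool was a random block, 4 of them positive, and also 5 without wild type vermis replicate 3 or SmoM2 hemisphere replicate 2. Dropping wild type hemisphere replicate 2 gave a median of 0.03, dropping SmoM2 vermis replicate 1 gave 0.08, and dropping wild type hemisphere replicate 3 gave 0.24. Jag1, a Notch ligand, rose by 2.33 and 1.91, and the target Hes5 by 1.80 and 1.5.

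Among genes that fell, Matn4 and Adipoq had the smallest interaction p. Matn4, a matrilin of the extracellular matrix, was at 5.44, 5.38 and 5.48 in wild type and 4.92, 4.93 and 4.83 in SmoM2 hemispheres. Vermis levels of Matn4 were 5.72, 6.14 and 5.80 in wild type and 4.59, 4.57 and 4.44 in SmoM2. Wild type arrays were higher in the vermis and SmoM2 arrays higher in the hemisphere. It fell by 0.54 ± 0.11 and 1.35 ± 0.11, with an interaction of 0.81 (0.47 to 1.15).

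Adipoq, the gene of the secreted hormone adiponectin, was at 4.86, 4.39 and 4.57 in wild type and 3.27, 3.40 and 3.49 in SmoM2 hemispheres. Vermis values were 5.62, 5.51 and 5.57 in wild type and 3.59, 3.53 and 3.32 in SmoM2. The wild type arrays were apart by region and the SmoM2 arrays overlapped. It fell by 1.22 ± 0.12 and 2.09 ± 0.12, with an interaction of 0.87 (0.49 to 1.24). SmoM2 levels of Adipoq lay low on the arrays, where RMA compresses differences.

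**Figure D3:**
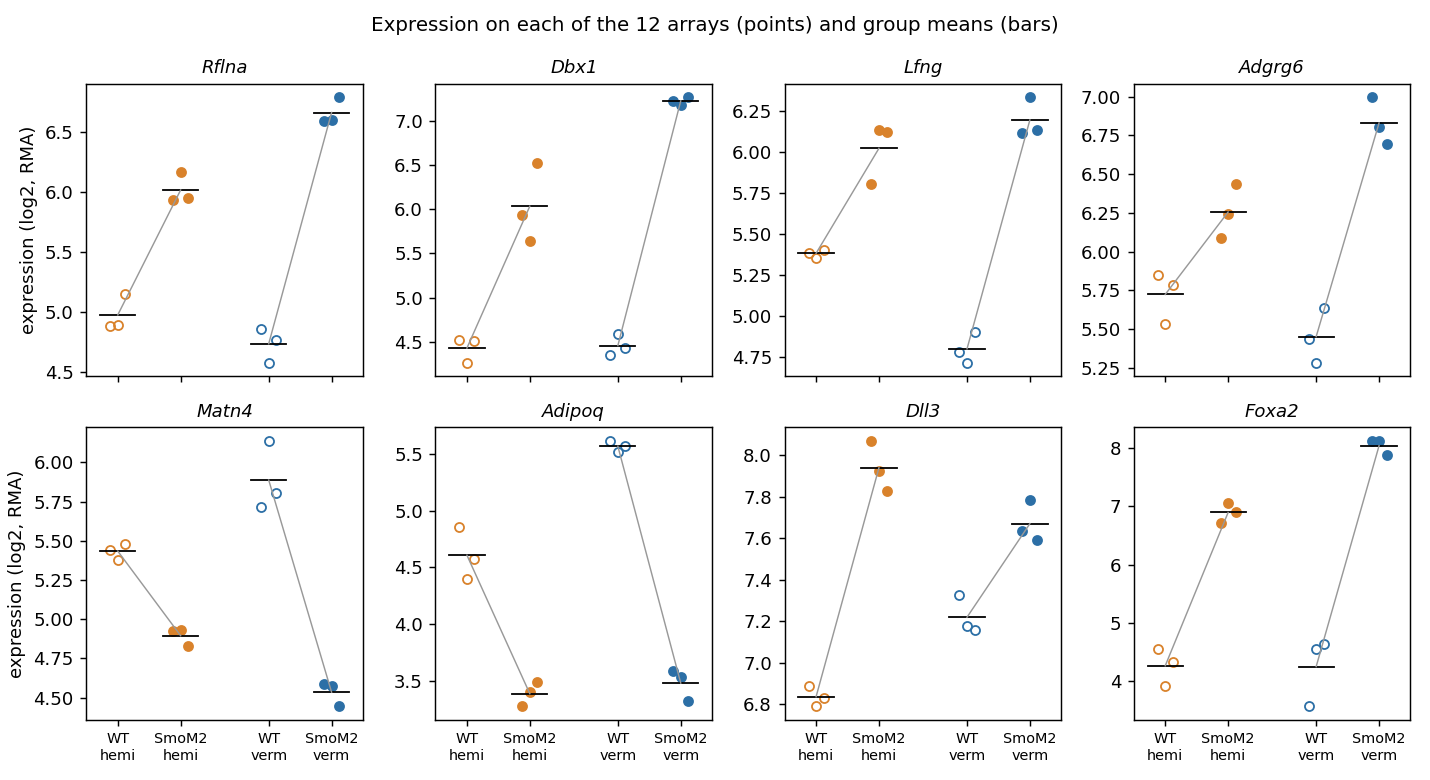
Log2 expression of 8 genes on each of the 12 arrays, wild type as open and SmoM2 as filled points, hemisphere in orange and vermis in blue, with bars at the group means and lines joining the genotypes of a region. For Dbx1 and Foxa2 the wild type levels of the regions overlap and the SmoM2 vermis arrays are highest, while for Lfng, Matn4, Adipoq and Dll3 the wild type arrays already differ by region.

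A set of genes had the larger rise in the hemisphere. Olig1, a factor of oligodendrocyte progenitors and hindbrain progenitors, was at 7.84, 7.39 and 7.80 in wild type and 9.42, 9.56 and 9.28 in SmoM2 hemispheres. In vermis arrays it was at 8.13, 8.29 and 8.35 in wild type and 9.44, 9.39 and 9.21 in SmoM2. SmoM2 levels overlapped, and wild type levels were lower in the hemisphere. The rises were 1.75 ± 0.13 and 1.09 ± 0.13 (interaction 0.65; unadjusted p = 0.0035 by limma). Its relative Olig2 rose by 2.10 and 1.47.

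Sowaha was at 2.39, 2.57 and 2.49 in wild type and 9.33, 9.19 and 9.33 in SmoM2 hemispheres, against 3.21, 3.41 and 3.88 and then 9.53, 9.63 and 9.69 in the vermis. The hemisphere was lower in both genotypes. Its wild type hemisphere values lay below the lower quartile of the arrays, which was 3.24 to 3.42, so the interaction of 0.68 rests on levels with no known distance from background. Ebf2, a helix-loop-helix factor of neuronal differentiation, rose by 1.20 and 0.56, while Cplx2, which acts in synaptic vesicle fusion, rose by 1.90 and 1.12. The interaction of Cplx2, 0.77, was 0.32 and 0.06 on its other probe sets and 0.38 on the mean of all 3. Crym, a thyroid hormone binding protein, rose by 3.61 and 2.95, and Epha5, an ephrin receptor, by 2.45 and 1.87. The other 3 probe sets of Epha5 gave interactions of 0.54, -0.01 and 0.37, against 0.58.

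Mitosis genes had small interactions of one sign. They had a median SmoM2 effect of 0.15 in the hemisphere and 0.35 in the vermis, against -0.05 and -0.06 over all genes. Of 35 measured members 1 rose laterally and 12 at the midline, against 7.62% and 7.56% over all genes. Of the interactions 0 of 35 were positive, against 9519 of 18194 over all genes. This count is a description, since the members are not independent replicates. The median interaction was -0.15, and 0 had an unadjusted p under 0.05. When the pool was a random block 2 did, all negative, with 2 rising laterally and 15 at the midline, and 4 did with the pool as a fixed block. Aurka, the kinase of spindle poles, had effects of 0.07 and 0.40, and Plk1, the kinase that drives mitotic entry, of 0.50 and 0.70 (adjusted p of 0.081 and 0.0198 by limma). Within the assumed wild type pools the mean mitosis level was higher in the hemisphere by 0.20, 0.14 and 0.21. Within the assumed SmoM2 pools the difference was 0.07, 0.04 and -0.07, below that of every wild type pool.

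The mitosis counts moved with single arrays and with the processing. After quantile normalization of the values again, and likewise without moderation of the variances, 0 rose laterally and 6 at the midline. Without wild type hemisphere replicate 1, 9 genes rose laterally and 16 at the midline, 11 interactions were positive and their median was -0.06. Without wild type vermis replicate 3 the numbers were 1 and 0, with 9 positive and a median of -0.07. Without wild type vermis replicate 1, the numbers were 3 and 20, and without replicate 2 they were 0 and 1. Leaving out SmoM2 vermis replicate 1, 2 or 3 left 0 in the hemisphere and 6, 1 or 4 in the vermis. DNA replication genes had medians of 0.34 and 0.43, with 16 and 21 of 34 rising. Ribosome biogenesis genes had medians of 0.41 and 0.43, with 12 and 17 of 27 rising. Over all genes 7.62% rose laterally and 7.56% at the midline. The counts of both lists moved as well. The DNA replication count fell to 7 laterally without wild type hemisphere replicate 2. It fell to 8 when replicate 1 or 2 of the SmoM2 hemisphere was dropped, and to 10 when replicate 3 was. At the midline it was 9 when replicate 2 of either vermis group was dropped, 11 when the first SmoM2 array was, 12 when the third wild type array was, and 13 without moderation. The ribosome biogenesis count ranged from 8 (without SmoM2 hemisphere replicate 1) to 18 (without wild type hemisphere replicate 1) laterally. At the midline it was 9, 10 or 11 without SmoM2 vermis replicate 2, SmoM2 vermis replicate 1 or wild type vermis replicate 3.

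Markers of other cell types carried the largest list medians of the interaction. Of 17 measured oligodendrocyte lineage genes 11 fell in both regions and 4 rose in both. Over all genes 7.18% fell and 7.62% rose laterally, and 9.46% and 7.56% at the midline. Of the 17, 16 had a positive interaction, with a median of 0.41. That median was 0.25 without SmoM2 vermis replicate 1, 0.27 without SmoM2 hemisphere replicate 2 and at most 0.58, and 2 rather than 4 rose at the midline without replicate 3 of either vermis group. The myelin gene Mbp fell by 1.39 and 1.81, Mobp by 1.40 and 1.93, and Mag by 1.40 and 1.87 (hemisphere first). Gpr17, a receptor of committed oligodendrocyte precursors, fell by 1.03 and 1.83. The mean level of the list was 8.05 to 8.10 in the wild type hemisphere and 8.31 to 8.67 in the wild type vermis, and 7.34 to 7.82 and 7.44 to 7.85 in the SmoM2 hemisphere and vermis. Thus the wild type arrays were apart by region and the SmoM2 arrays overlapped. An unadjusted p under 0.05 was reached by 4 (23.5%, against 3.1% over all genes), and by 7 when the pool was a random block. It was reached by 1 without SmoM2 hemisphere replicate 2, and by 7 or 8 without wild type vermis 1, SmoM2 hemisphere 1 or SmoM2 vermis 2. Since both Olig genes rose while the myelin genes fell, the list holds both directions.

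Endothelial and pericyte genes had a median effect of 0.03 in the hemisphere and -0.52 in the vermis. Among the 17 measured, 2 fell laterally and 6 at the midline, against 7.18% and 9.46% over all genes. Of their interactions 16 were positive, with a median of 0.54. An unadjusted p under 0.05 was reached by 5 (29.4%, against 3.1% over all genes), and by 10 when the pool was a random block. Dropping wild type hemisphere replicate 3 gave 14, dropping SmoM2 hemisphere 3 or SmoM2 vermis 1 gave 1, and dropping any other array gave 2 to 7. The number falling at the midline was 10 without wild type hemisphere replicate 3, and 3 without wild type vermis replicate 2 or 3 or SmoM2 vermis replicate 1. Rgs5, a pericyte regulator of G protein signaling, was at 8.89, 8.90 and 9.61 in wild type and 9.01, 9.08 and 9.44 in SmoM2 hemispheres. The vermis values were 9.66, 9.75 and 9.94 in wild type and 8.28, 9.02 and 9.17 in SmoM2. The genotypes overlapped in the hemisphere and were apart in the vermis, with an interaction of 1.00 (0.32 to 1.69; unadjusted p = 0.00739 by limma). That was the highest interaction of the list, the lowest was -0.26, and the members Slco1a4 and Vtn had 0.29 and 0.30. Slco1c1, a thyroid hormone transporter of brain endothelium and glia that is not on the list, had effects of -0.18 and -1.11 (adjusted p of 0.491 and 0.000383 by limma). The mean list level was 6.08 to 6.72 in the wild type hemisphere, 6.37 to 6.59 in the wild type vermis, 6.07 to 6.32 in the SmoM2 hemisphere and 5.68 to 6.09 in the SmoM2 vermis.

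The part of these marker differences in the other results was not tested. RMA values have no zero, so no marker could be called undetected.

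**Figure D4:**
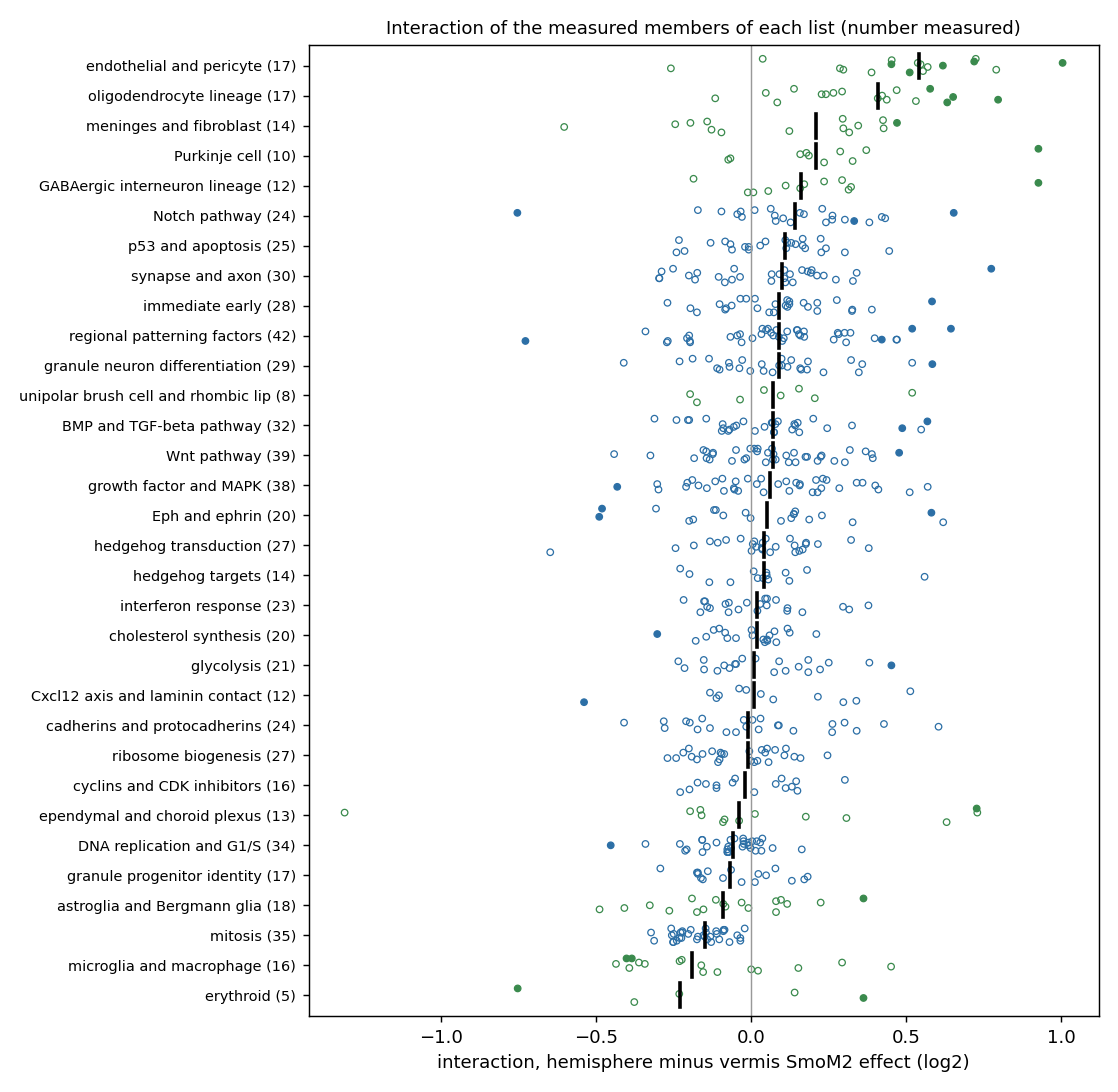
Interaction (log2) of each measured member of 32 lists, all but the sex-linked transcripts, with the number measured in brackets. Pathway lists are in blue and cell type lists in green. Black bars are medians and filled points have an unadjusted limma p under 0.05. Endothelial and oligodendrocyte lists sit furthest right (medians 0.54 and 0.41), hedgehog lists close to 0 (0.04 each), and all 35 mitosis genes lie below 0.

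The same interaction can be read as the change in the region difference between genotypes. Averaged over genotypes, 85 genes (0.467%) differed by region, 11 (0.0605%) higher in the hemisphere and 74 (0.407%) higher in the vermis, and 261 did when the pool was a random block. Counts of 42 to 54 followed when wild type hemisphere 2, wild type vermis 2, any of the 3 SmoM2 hemisphere replicates or SmoM2 vermis 1 or 2 was left out. All 85 kept the sign of their region difference in both genotypes, which choosing them by the average over genotypes favors. The median size of the difference was 0.707 in wild type and 0.581 in SmoM2, and 64 of 85 were smaller in SmoM2 (58 to 65 without single arrays). Over all genes the median size was also smaller in SmoM2, 0.073 against 0.09 in wild type. The share of all genes with a smaller difference in SmoM2 was not computed. An unadjusted interaction p under 0.05 was reached by 22 (25.9%, against 3.1% over all genes), and by 33 (38.8%, against 7.13%) when the pool was a random block. The choice of the 85 genes used the same variance estimates as that p, so these shares are not free of it. The region differences of the 85 genes in the 2 genotypes correlated at r = 0.802, against 0.286 over all genes, as a description across genes chosen for their region difference.

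En1, the homeodomain factor that patterns the midbrain and cerebellum, was at 2.54, 2.55 and 2.50 in the wild type hemisphere and at 5.42, 5.65 and 5.76 in the wild type vermis. In SmoM2 it was at 2.27, 2.38 and 2.66 in the hemisphere and at 5.46, 4.78 and 4.91 in the vermis. The regions did not overlap in either genotype. The vermis was higher by 3.08 in wild type and by 2.62 in SmoM2, with an interaction of 0.47 (-0.02 to 0.95). Hemisphere levels of En1 were near the bottom of the arrays, which bounds both differences from below.

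Nr2f2, an orphan nuclear receptor of regional patterning, was at 8.52, 8.49 and 9.15 in wild type hemispheres and at 6.79, 6.73 and 7.03 in wild type vermis. In SmoM2 it was at 8.21, 8.34 and 8.21 in the hemisphere and at 6.70, 6.73 and 6.53 in the vermis. The hemisphere was higher on every array of both genotypes, by 1.87 and 1.60. The interaction of Nr2f2, -0.27, was 0.06 on the mean of its probe sets. Epha3, an ephrin receptor of axon guidance, was higher in the hemisphere by 1.66 in wild type and 1.17 in SmoM2 (interaction -0.49; unadjusted p = 0.0435 by limma). Its other, dimmer probe sets gave interactions of -0.34, 0.43 and 0.06, and the mean of all 4 gave -0.08, so the direction rests on the brightest probe sets. Insm2 went the other way, with 0.88 in wild type and 1.39 in SmoM2 (interaction 0.51, and 0 and -0.18 on its dimmer probe sets). Adipoq and Dbx1 are among the 85: the vermis was higher in Adipoq by 0.96 in wild type and 0.09 in SmoM2, and in Dbx1 by 0.03 and 1.19.

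**Figure D5:**
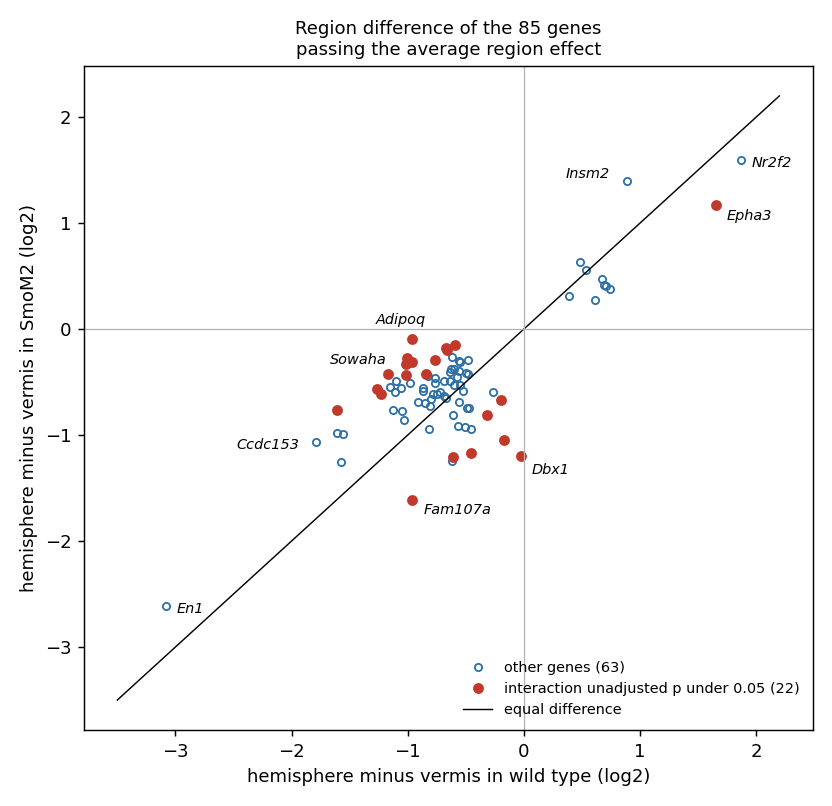
Hemisphere minus vermis difference (log2) in wild type (horizontal axis) and in SmoM2 (vertical axis) for the 85 genes that passed the average region effect; red points are the 22 with an unadjusted interaction p under 0.05, and the line marks equal differences. Points lie in the same-sign quadrants, En1 at -3.08 and -2.62 being the most vermis-high and Nr2f2 at 1.87 and 1.60 the most hemisphere-high.

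The responses were also compared array by array. For 2883 genes (15.8%) the 6 arrays of one genotype all lay above the 6 of the other. In 3618 genes the genotypes were separated in both regions in the same direction, and in 22 they were separated in opposite directions. The genotypes were separated for 5770 genes (31.7%) in the hemisphere and for 7238 (39.8%) in the vermis. When the region difference was taken within each assumed pool, the 3 differences of one genotype all lay above the 3 of the other for 2407 genes (13.2%). Separation of 3 values from 3 others often occurs without a difference, so this share was read only as a description.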

How the data were processed

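Granule cell progenitors were measured on 12 Affymetrix arrays, and samples were grouped by their titles. The deposited values are log2 expression per probe set, made by the authors with Partek and RMA per the submitters' processing notes; no versions are stated there. RMA quantile-normalizes and gives no detection call. Of 45101 probe sets, 64 were controls; 34958 had 1 gene symbol in the platform annotation, 932 several and 9211 none, and 34754 matched the reference gene table. The probe set with the highest mean was kept for each of 18194 genes (9012 had several). limma 3.58.1 in R 4.3.3 (lmFit, eBayes) fitted a mean for each of the 4 groups (8 residual degrees of freedom), with two-sided tests and Benjamini-Hochberg adjustment over all genes at 0.05. P-values measure the spread between these pools.

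Named genes were the 8 smallest interaction p each way and a fixed hedgehog and granule cell set. Added were the 10 largest average SmoM2 effects each way among genes that passed it. These genes also had to have the 6 arrays of one genotype all on one side of the other 6. So were the 6 largest average region effects each way among genes that passed it, and up to 4 members of each of 33 lists (727 genes, 686 measured). Hey2, Mbp, Mobp, Mag and C1qc were named from their lists after their values were seen. The members and lists were chosen with earlier results of these data known. The script was tested on simulated data. Replicate numbers were taken to pair arrays within a genotype, which the labels do not state. Deviations from group means correlated at 0.14 to 0.53 for 6 pairs of hemisphere and vermis arrays with the same number and genotype. For 12 pairs with different numbers the range was -0.40 to 0.02, lowered because deviations within a group sum to 0. Between genotypes, which share no pool, it was -0.22 to 0.28 for the same number and -0.34 to 0.21 for different numbers. These ranges overlap that of the assumed pools. The pairing is an assumption from the first correlation and the pooling of 5 mice per replicate. Alternatives covered the pool or number as a block, scaling, probe set choice, filters, moderation, array weights and each array left out. No genome coordinates are given, since the files name no genome build.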

Additional observations from a re-analysis of the deposited data

Results flagged for a closer look

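Bco2, which encodes an enzyme that cleaves carotenoids, was singled out because its arrays moved in opposite ways in the 2 regions. It was at 3.46, 3.56 and 3.22 in the wild type hemisphere and at 2.93, 2.93 and 3.03 in the SmoM2 hemisphere, where every SmoM2 array was lower. In the vermis it was at 3.04, 3.15 and 3.10 in wild type and at 3.21, 3.22 and 3.43 in SmoM2, where every SmoM2 array was higher. The effects were -0.45 (adjusted p = 0.012 by limma) and 0.18 (adjusted p = 0.248), and the interaction was -0.639, with an unadjusted p of 0.000934 and an adjusted p of 1. Bco2 is 1 of 22 genes, of 18194, whose arrays were separated in opposite ways, and its levels lay near the lower quartile of the arrays. With 3 arrays per group, some genes separate in this way without a difference.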

How the results depend on the processing

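The interaction passed for 0 genes in the reported fit and for 0 to 1 when single arrays were left out; the 1 was Dbx1 without SmoM2 hemisphere replicate 3. With the pool as a random block (replicate block) it passed for 0, and for 6 (Adipoq, Dbx1, Dll3, Lfng, Matn4 and Rflna, adjusted p 0.036 to 0.0419 by limma) when only the 4312 genes passing the average SmoM2 effect in that fit were tested, a setting chosen after seeing the data. The pairing of regions within a pool is assumed. With the replicate number or the pool as a fixed block 0 genes passed. Hemisphere calls were 4840 with every probe set tested and 1633 to 4276 without single arrays, and vermis calls 5032 and 1756 to 3827. The average SmoM2 effect passed for 12682 with every probe set, 3937 among genes brighter than the median gene, 2701 with that filter and the random block, and 5047 to 7727 without single arrays. The average region effect passed for 261 with the pool as a random and 139 as a fixed block, 27 among brighter genes, 237 with both the random block and that filter, 6 without moderation and 42 to 111 without single arrays. The correlation of both responses was 0.922 among brighter genes and 0.832 to 0.879 without single arrays, and intervals lay within 2-fold for 8901 of 9097 brighter genes and for 17468 to 17642 without single arrays. Apart from filters that test fewer or more features and arrays left out, the cause of these changes was not tested. The hemisphere effect of Ttr, a choroid plexus gene, was -1.19, and it ranged from -2.389 to 1.085 over single arrays left out, turning positive without wild type hemisphere replicate 1. Of 4248 values of named interactions under the alternatives, 4241 kept their side of the threshold, 7 newly passed and 157 changed sign; of 7646 SmoM2 effects 7251 kept their side, 296 no longer passed, 98 newly passed and 79 changed sign, 1 of them while past the threshold. RMA values near the bottom of the arrays limit what can be said of dim genes.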

Other observations

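Microglia and macrophage markers were lower in SmoM2 in both regions. Of 16 measured, 11 fell laterally and 10 at the midline, against 7.18% and 9.46% over all genes. Their median effects were -0.80 and -0.58, and their median interaction was -0.19, against 0.01 over all genes, with 5 of 16 positive. Without single arrays 3 to 7 were positive, and the median ranged from -0.36 (without wild type hemisphere replicate 3) to -0.09 (without SmoM2 vermis replicate 1). It was -0.31 without SmoM2 vermis replicate 3, -0.12 without wild type hemisphere replicate 1 and -0.11 without SmoM2 hemisphere replicate 3. The number falling at the midline was 4 without SmoM2 vermis replicate 3 and 6 without wild type vermis replicate 2 or 3 or SmoM2 vermis replicate 2. The complement gene C1qc fell by 1.12 and 0.72 and the protease Ctss by 1.31 and 1.08, while Csf1r, the receptor that maintains microglia, fell by 1.09 in each region. Of 12 measured genes of the GABAergic interneuron lineage 6 fell laterally (3 without wild type hemisphere replicate 2 or SmoM2 hemisphere replicate 1 or 3) and 9 at the midline; Ptf1a, the factor that specifies this lineage, fell by 1.01 and 1.13. Gad1, an enzyme that makes GABA, was at 7.09, 7.73 and 7.14 in wild type and 6.00, 6.95 and 6.10 in SmoM2 hemispheres. In the vermis it was at 7.59, 8.01 and 7.71 in wild type and 6.00, 6.42 and 5.19 in SmoM2, where the fall of 1.90 exceeded the 0.97 of the hemisphere (interaction 0.93; unadjusted p = 0.0427 by limma) and was 0.57 and 1.04 on its other probe set.

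The alpha-globin genes disagreed with each other. Hba-a2 had effects of -0.23 (hemisphere) and 0.52 (vermis), and Hba-a1 of -0.06 and -0.42, so the interactions of these near-identical genes were -0.75 and 0.36, and each probe set may detect both genes. Among signaling genes away from hedgehog, Bmp5, a bone morphogenetic protein, rose by 1.81 and 2.01 and Etv5, a target of MAPK signaling, by 2.88 and 2.96. Bmp4 fell by 0.68 and 1.23, and Igfbp3, an insulin-like growth factor binding protein, rose by 1.62 and 1.11. Over all genes 7.62% rose and 7.18% fell laterally, and 7.56% and 9.46% at the midline. Of 42 measured patterning factors 7 rose in each region, 3 fell laterally (0 to 5 without single arrays) and 6 at the midline. The midline count was 12 or 10 without wild type hemisphere replicate 1 or 3, 3 without wild type vermis replicate 2 or 3, and 1 or 2 without SmoM2 vermis replicate 2 or 3. Bcl11b, a zinc finger factor, rose by 2.68 and 2.38.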
